A study of Mus musculus with 11 samples.

Results

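The genes of the constitutive proteasome, its regulatory particle, its activators and its assembly chaperones were followed in whole mouse ovaries at 3 ages. They were the protein coding genes whose symbols belong to the series Psma, Psmb, Psmc, Psmd, Psme, Psmf and Psmg followed by a number, with the interferon-inducible catalytic subunits Psmb8, Psmb9 and Psmb10 left out. This gave 45 genes of the 54232 in the table of counts. By role they were 8 alpha and 8 beta subunits of the 20S core, 6 ATPases and 11 other subunits of the 19S particle, 5 activators and inhibitors and 7 assembly chaperones. The rule uses symbols and no measured value, although the group was picked with earlier results of these data known.

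The proteasome is the protease complex that degrades proteins tagged with ubiquitin. In the 20S core, alpha rings gate the entrance and beta rings hold the protease sites, on Psmb5 (chymotrypsin-like), Psmb6 (caspase-like) and Psmb7 (trypsin-like). The 19S particle binds the ubiquitin chain, removes it and threads the substrate inward with its ring of ATPases, while other caps made of Psme proteins open the gate without ubiquitin. Under interferon and in immune cells Psmb8, Psmb9 and Psmb10 take the places of Psmb5, Psmb6 and Psmb7, and the complex is then called the immunoproteasome.

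RNA of whole ovaries of wild-type (WT) mice was sequenced at 2, 18 and 24 months of age, in 4, 4 and 3 libraries. No other allele and no treatment is given in the labels. The names of the libraries give 8 weeks for the 2 month group and 22 months for the 24 month group, and the ages used here are those of the sample titles. The series describes these ages as young, old and post-reproductive.

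Total counts per library were 26061630 to 33407509, except 5231724 and 8892915 in 18 month replicates 3 and 4. The counts of these 2 libraries differed by about counting noise, with a chi-square per gene of 1.11 (15321 genes compared), while every other pair of libraries of 1 age had 32.2 or more. They were summed and counted as 1 sample, which left 4, 3 and 3 samples. Nothing in the labels ties samples to animals. The p-values therefore only weigh differences between ages against the spread of these samples, which may be technical. Of all genes tested, 5.51% were lower and 6.04% higher at 18 than at 2 months, and 15.8% were lower and 19.2% higher at 24 than at 2 months.

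To show which sequence elements lie before the starts of these genes, RefSeq promoters (GRCm38.p6, 250 bases before and 50 after the start) were searched on both strands for 3 short motifs. These were the core of the ETS factor site (CCGGAAG), the core of the antioxidant response element (TGACNNNGC), through which Nfe2l1 and related factors raise proteasome genes, and the CCAAT box. Of the 45 genes, 37 were in that table. The ETS core stood in 14 of them (37.8%), against 9.93% of 27025 genes in the table and 16.7% of the 13099 of them that were tested here. The antioxidant response element core stood in 6 (16.2%), against 14% and 16.5%, and the CCAAT box in 13 (35.1%), against 41.1% and 41.8%. The promoters of Psmb8, Psmb9 and Psmb10 held neither the ETS nor the antioxidant response element core. The windows below were chosen after the search, as examples lying wholly before the gene start in both RefSeq and the deposited coordinates. The first 5 hold the ETS core and the last pair the antioxidant response element core. They are written along the gene's strand, with the motif in capitals, which reads CTTCCGG where the ETS core lies on the other strand.
Psmd11, chr11:80428559-80428614, plus strand: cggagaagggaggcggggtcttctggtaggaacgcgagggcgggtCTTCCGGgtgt
Psmd2, chr16:20651581-20651651, plus strand: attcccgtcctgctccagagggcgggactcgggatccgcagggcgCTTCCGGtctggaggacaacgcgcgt
Psme3, chr11:101316061-101316157, plus strand: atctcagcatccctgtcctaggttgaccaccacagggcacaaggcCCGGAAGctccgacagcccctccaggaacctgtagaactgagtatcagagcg
Psmc6, chr14:45329679-45329775, plus strand: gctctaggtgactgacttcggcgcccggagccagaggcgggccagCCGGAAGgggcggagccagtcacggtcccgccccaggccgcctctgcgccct
Psmg1, chr16:95990978-95991074, minus strand: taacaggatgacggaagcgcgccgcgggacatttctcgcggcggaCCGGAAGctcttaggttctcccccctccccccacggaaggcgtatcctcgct
Psmb6, chr11:70525303-70525356, plus strand: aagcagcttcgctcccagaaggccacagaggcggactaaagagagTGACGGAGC
Psmc6, chr14:45329574-45329650, plus strand: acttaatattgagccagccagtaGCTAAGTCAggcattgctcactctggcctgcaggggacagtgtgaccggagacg
A match describes the letters only and is no evidence of a bound factor.

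Constitutive proteasome genes were lower in the older ovaries, by similar amounts across the core and the 19S particle. Summed over the 45 genes, the level was 5113, 4656, 4865 and 4703 CPM (reads of a gene relative to the size of the library, scaled by TMM) in the 2 month samples, 4166, 3530.4 and 3375 CPM in the 18 month samples, and 3772, 3478 and 3116 CPM in the 24 month samples. Every older sample lay below every 2 month sample, and the ranges of the 2 older ages overlapped. As a share of all counts, without that scaling, the genes made up between 0.420% and 0.472% of the 2 month libraries, between 0.350% and 0.399% of the 18 month samples, and between 0.347% and 0.388% of the 24 month samples. In such whole-organ samples fewer cells of a type and less RNA per cell cannot be told apart.

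**Figure D1:**
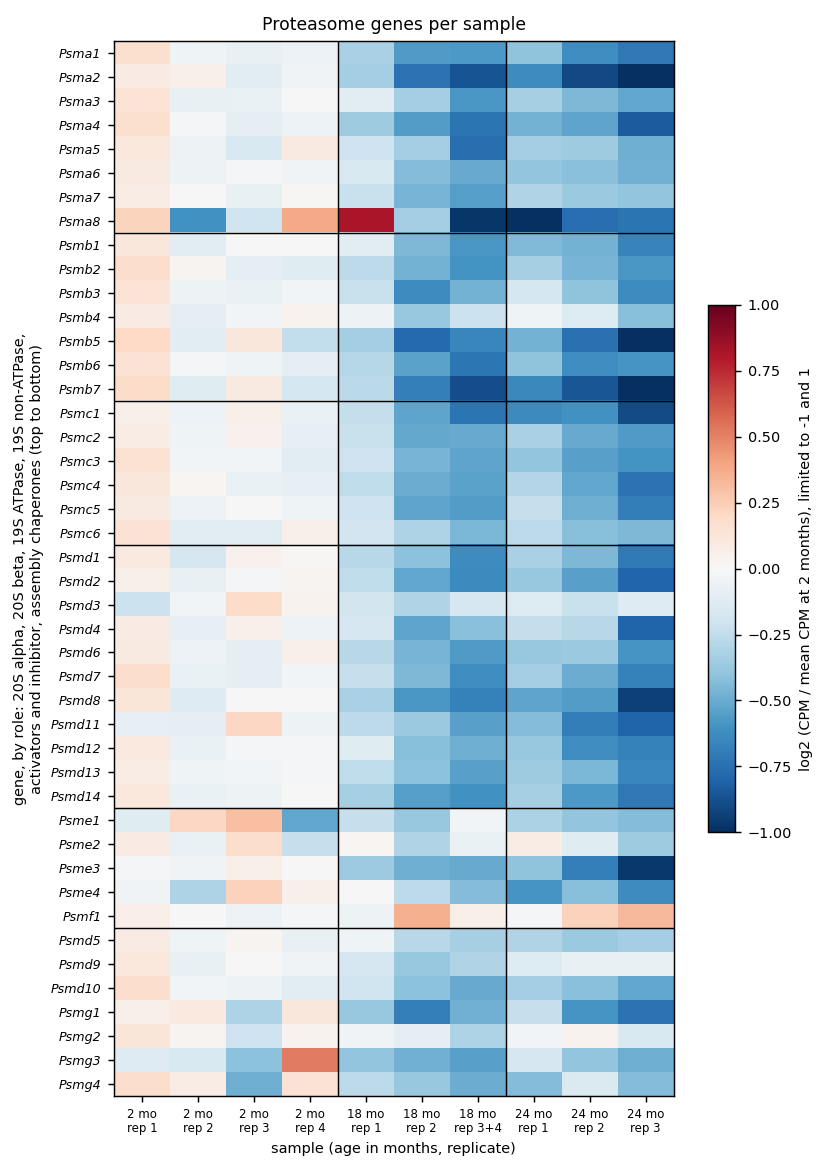
Level of each of the 44 tested genes (rows, by role) in each sample (columns), as the log2 of its CPM over its mean at 2 months, with colours limited to -1 and 1. Most rows are blue in the 18 and 24 month columns, where the median over genes was -0.23 to -0.55 and -0.34 to -0.63 per sample, while Psmf1 is pale or red and Psme2 pale.

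At 18 against 2 months, 17 of the 44 tested genes fell (38.6%, against 5.51% of all genes tested) and 0 rose (6.04% of all genes). At an unadjusted p below 0.05 the edgeR test had 34 lower and 0 higher (29.9% of all genes passed in either direction), and neither DESeq2 nor limma-voom called any of the 44 higher. The log2 fold change was negative for 42 of 44 genes (49.3% of all genes tested), with a median of -0.40, or 0.755-fold, against 0.01 for all genes. It ranged from -0.63 to 0.13, and its SD over the genes was 0.153, against 1.00 over all genes. These SDs were not matched for abundance: the median level of the tested members was 99.7 CPM, and scarce genes carry more counting error. For 33 genes every 18 month sample was lower than every 2 month sample (13.7% of all genes tested). The number called rested on single samples: it was 0 in the fits without 2 month replicate 1, 2 or 4, without 18 month replicate 2 or without the summed 18 month sample, 11 without 2 month replicate 3 and 8 without 24 month replicate 2. The sign was negative for the same 42 genes in every alternative run.

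At 24 against 2 months, 33 of 44 genes fell (75%, against 15.8% of all genes tested) and 0 rose (19.2% of all genes). At an unadjusted p below 0.05 in edgeR, 34 were lower and 0 higher (46.7% of all genes passed in either direction), and DESeq2 and limma-voom called 0 higher. The log2 fold change was negative for 43 of 44 genes (48% of all genes tested). Its median was -0.47, or 0.720-fold, against 0.03 for all genes, with a range of -0.85 to 0.18. The SD was 0.209, against 1.35 for all genes, again not matched for abundance. In 34 genes the 24 month samples all lay below the 2 month samples (20.4% of all genes tested). Without 24 month replicate 3 the number called was 20. In every fit that left out 1 sample, 20 of the 33 were called, and the calls lost in at least 1 of these fits were those of Psma3, Psma5, Psma7, Psmb2, Psmb3, Psmc5, Psmc6, Psmd1, Psmd5, Psmd7, Psmd10, Psme4 and Psmg1. Psma1, Psma2, Psma4, Psmb6, Psmb7, Psmc1 and Psmd12 were called lower in every alternative run. The sign was negative in every alternative run for 39 of the 44 genes. With library totals alone as the scale, the median of all genes moved to 0.22 and that of the proteasome genes to -0.29. A change of scale shifts all genes by about the same amount. The difference between the medians, -0.51 under either scale, is therefore no check on the scaling.

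Between 24 and 18 months no proteasome gene was called in either direction (edgeR, DESeq2 and limma-voom, 0 each, and 0 in edgeR at an unadjusted p below 0.05, against 10.4% of all genes). Of all genes tested, 0.00492% were called higher and 0% lower. The log2 fold change was negative for 33 of 44 genes (46.4% of all genes tested), and for 0 of them did every 24 month sample lie below every 18 month sample (5.36% of all genes tested). The median log2 fold change of the 44 genes was -0.06 with TMM and 0.03 with library totals alone, so its sign depends on the scale. On the TMM scale the summed CPM of the 45 genes was lower at 24 than at 18 months in 3 of 3 same-numbered pairs, by a mean log2 difference of -0.09 (exact sign-flip permutation p = 0.25, the smallest that 3 pairs allow). Both comparisons with 2 months share the 2 month samples.

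**Figure D2:**
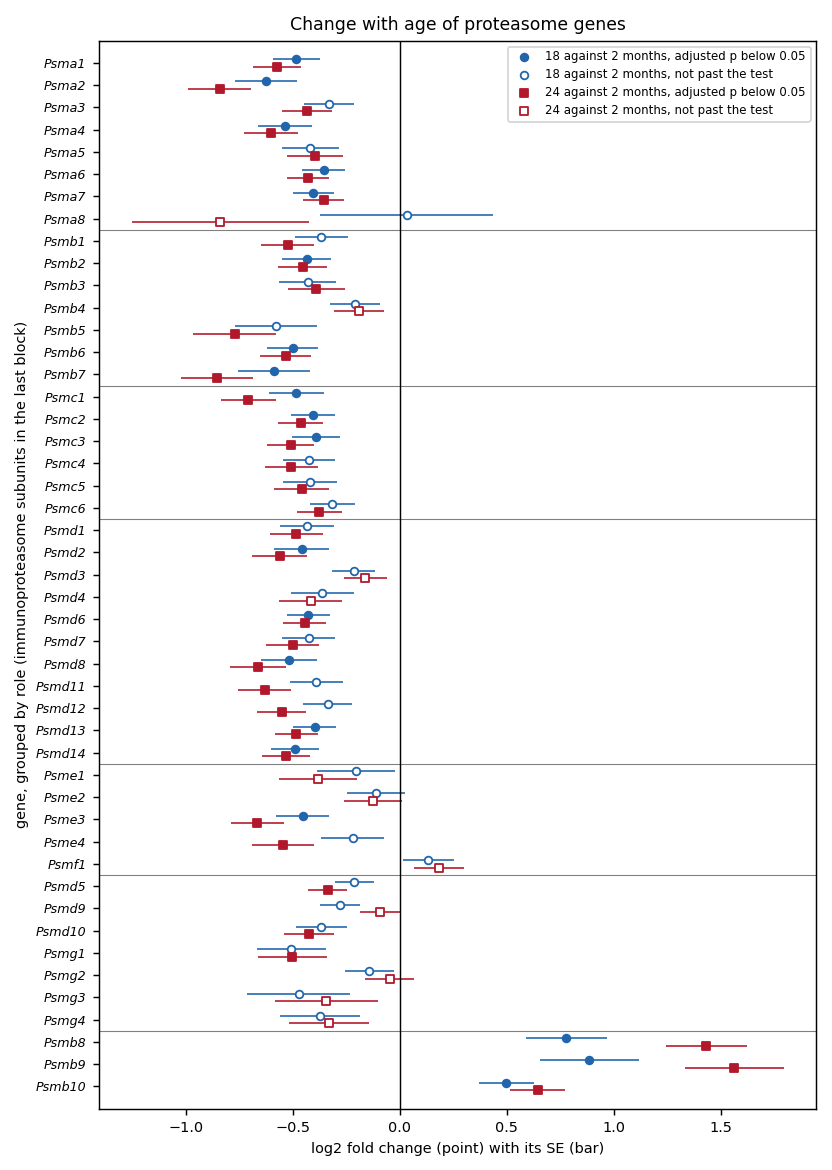
Log2 fold change (x axis) of the 44 tested genes and the 3 immunoproteasome subunits (y axis, by role) at 18 and at 24 months against 2 months, with bars of 1 SE, filled where the edgeR adjusted p was below 0.05. The constitutive genes lie between -0.85 and 0.18, and Psmb8, Psmb9 and Psmb10 between 0.50 and 1.56.

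**Figure D3:**
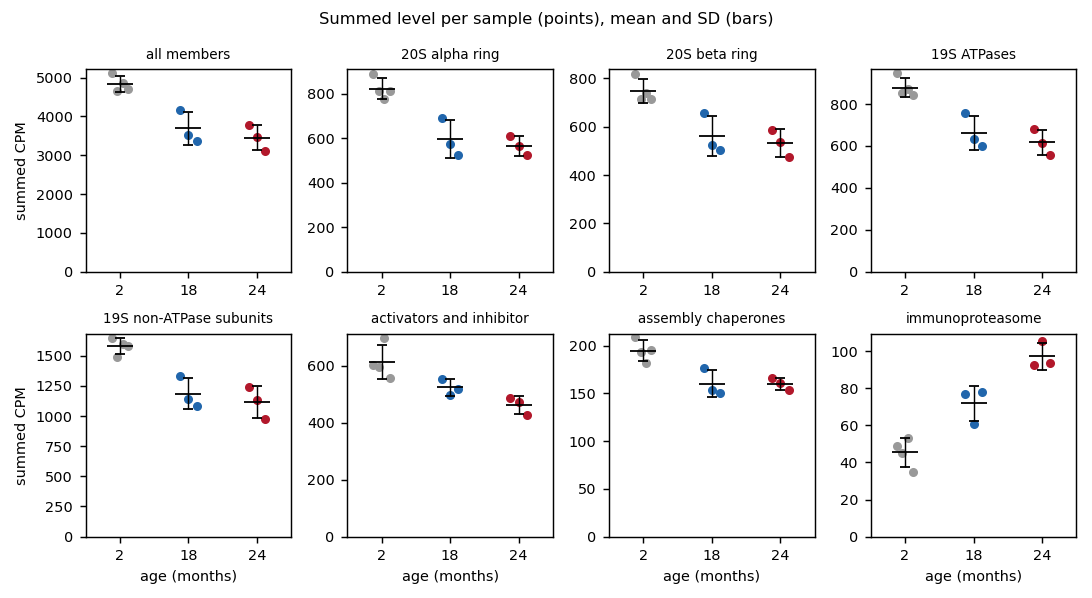
Summed CPM of each role group (y axes start at 0) in each sample (points) by age in months, with the mean and SD. The 4 samples of 2 months lie above the others in every constitutive panel, and the immunoproteasome panel runs the other way, with 34.6 to 53.2 CPM in 2 month samples and 92.6 to 105.8 CPM in 24 month samples.

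In the alpha ring, 5 of 8 genes fell at 18 months and 7 of 8 at 24 months (5.51% and 15.8% of all genes tested). The median log2 fold changes were -0.41 and -0.50. Psma2, a gate subunit of the alpha ring, had the smallest adjusted p of all 44 genes at 24 months. Its level was 181, 176, 158 and 166 CPM at 2 months, 135, 102 and 93.8 CPM at 18 months, and 110.4, 91 and 83.6 CPM at 24 months. No older sample reached the 2 month range. The log2 fold change of Psma2 was -0.63 at 18 months (SE 0.145, edgeR adjusted p = 0.0264) and -0.84 at 24 months (SE 0.145, edgeR adjusted p = 0.00421), or 0.558-fold at the later age. Psma2 lies on chromosome 13 at 14613240 to 14674236 (mm10, plus strand) and overlaps AW209491, which had 0.130 times its counts.

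Psma1, another alpha subunit, stood at 125, 109, 106 and 108 CPM at 2 months, 89.3, 75.7 and 75.2 CPM at 18 months, and 84.6, 73.0 and 68.1 CPM at 24 months. The older samples lay together below the 2 month samples. Psma1 had log2 fold changes of -0.48 (SE 0.111, edgeR adjusted p = 0.0259) and -0.57 (SE 0.111, edgeR adjusted p = 0.00596) at 18 and 24 months. Psma4 was measured at 147, 131, 123 and 127 CPM at 2 months, 103, 89.8 and 79.8 CPM at 18 months, and 95.2, 91.6 and 74.0 CPM at 24 months. Again no older sample entered the 2 month range, and the 2 older ages overlapped. Psma4 fell by 0.54 on the log2 scale at 18 months (SE 0.125, edgeR adjusted p = 0.0272) and by 0.60 at 24 months (SE 0.126, edgeR adjusted p = 0.00764). Psma6, whose values were 126, 114, 117 and 115 CPM at 2 months, 106, 87.4 and 83.0 CPM at 18 months and 89.6, 88.2 and 84.7 CPM at 24 months, fell to 0.781-fold and 0.742-fold of the 2 month level. Both changes of Psma6 passed the test (edgeR adjusted p = 0.0454 and 0.0107).

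Psma8 is the germ cell form of the alpha subunit that Psma7 provides elsewhere, known from the testis. It was scarce, at 4.41, 2.49, 3.29 and 4.90 CPM at 2 months, 6.63, 2.96 and 1.92 CPM at 18 months, and 1.83, 2.22 and 2.27 CPM at 24 months. The 18 month samples spread around the 2 month range, while the 24 month samples all lay below it. Psma8 had a log2 fold change of -0.84 at 24 months (SE 0.414, edgeR adjusted p = 0.138), and neither comparison with 2 months passed the test. Its sign at 18 months was not stable, since the value of 0.03 became -0.60 without 18 month replicate 1. Psma7 had log2 fold changes of -0.40 (SE 0.0966, edgeR adjusted p = 0.0293) and -0.36 (SE 0.0964, edgeR adjusted p = 0.0201) at 18 and 24 months.

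In the beta ring, 3 of 7 tested genes fell at 18 months and 6 of 7 at 24 months (5.51% and 15.8% of all genes tested). The medians were -0.43 and -0.52. Psmb5, the chymotrypsin-like subunit, had 33.5, 27.0, 31.4 and 24.6 CPM at 2 months, 23.0, 17 and 18.6 CPM at 18 months, and 21, 17.4 and 12.8 CPM at 24 months. All older samples were below all 2 month samples, with a wide spread within ages. Psmb5 fell by 0.77 on the log2 scale at 24 months (SE 0.192, edgeR adjusted p = 0.0148) and did not pass at 18 months, where the log2 fold change was -0.58 (SE 0.191, edgeR adjusted p = 0.0774). It lies on chromosome 14 at 54614119 to 54618022 (mm10, minus strand).

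Psmb6, the caspase-like subunit, was at 167, 149.5, 147 and 141 CPM at 2 months, 124, 105 and 91.8 CPM at 18 months, and 114, 98.4 and 101 CPM at 24 months. The ages of 18 and 24 months covered the same range, below that of 2 months. Psmb6 fell by 0.50 (SE 0.119, edgeR adjusted p = 0.0287) and 0.53 (SE 0.119, edgeR adjusted p = 0.0098) on the log2 scale. Psmb7, the trypsin-like subunit, had 102, 82.6, 95.4 and 79.3 CPM at 2 months, 74.5, 55.8 and 48.6 CPM at 18 months, and 57.6, 49.6 and 42.1 CPM at 24 months. This was the lowest log2 fold change of the 44 genes at 24 months, at -0.85 (SE 0.169, edgeR adjusted p = 0.00643), after -0.59 at 18 months (SE 0.168, edgeR adjusted p = 0.0499). The span of Psmb7 (chromosome 2, 38588036 to 38644087, mm10, minus strand) overlaps that of Nek6, whose counts were 0.572 times those of Psmb7. Whether exons overlap was not examined, and the strand setting of the counting is not given, so whether the genes share reads is not known.

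Among the structural beta subunits, Psmb2 stood at 108, 97.7, 89.2 and 87.9 CPM at 2 months, 79.9, 69.0 and 63.4 CPM at 18 months, and 76.1, 69.5 and 64.1 CPM at 24 months. Psmb2 fell by 0.43 and 0.45 in log2 units (edgeR adjusted p = 0.04 and 0.0155), with no overlap with 2 months. Psmb4 was the only tested subunit of the ring whose older samples overlapped with those of 2 months. Its log2 fold changes were -0.21 and -0.19 (edgeR adjusted p = 0.264 and 0.22). Whether Psmb4 differs from the other beta subunits was not tested. Psmb11, the form of cortical thymus epithelium, was too scarce to be tested, with 5, 14, 4 and 10 reads at 2 months, 2, 0 and 2 at 18 months, and 1, 1 and 0 at 24 months.

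All 6 ATPases of the 19S base fell at 24 months and 3 of 6 (Psmc1, Psmc2 and Psmc3) at 18 months, with medians of -0.49 and -0.41. Of all genes tested, 15.8% were lower at 24 and 5.51% at 18 months. Psmc1 (Rpt2), whose tail opens the core's gate, was at 179, 165, 179.7 and 165 CPM at 2 months, 146, 119 and 104 CPM at 18 months, and 111, 113 and 92.7 CPM at 24 months. Every older sample lay below the 2 month range, with 24 month replicate 3 the lowest. Psmc1 (chromosome 12, 100110154 to 100123405, mm10, plus strand) fell by 0.48 (SE 0.127, edgeR adjusted p = 0.0396) and 0.71 (SE 0.128, edgeR adjusted p = 0.00477) on the log2 scale.

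Psmc2 (Rpt1) had 148, 137, 145 and 133 CPM at 2 months, 121, 98.5 and 99.1 CPM at 18 months, and 112, 98.9 and 94.8 CPM at 24 months. Psmc5 (Rpt6) had 129.6, 117, 122 and 118 CPM at 2 months, 106, 84.6 and 82.8 CPM at 18 months, and 104, 86.6 and 75.5 CPM at 24 months. Both genes were lower in every older sample, with log2 fold changes at 24 months of -0.46 for each (edgeR adjusted p = 0.0104 for Psmc2 and 0.022 for Psmc5). The remaining ATPases Psmc3, Psmc4 and Psmc6 had log2 fold changes of -0.51, -0.51 and -0.38 at 24 months, all past the test.

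Of the 11 other 19S subunits, 5 fell at 18 months and 9 at 24 months (5.51% and 15.8% of all genes tested). Their medians were -0.43 and -0.50. Psmd14 (Rpn11), the deubiquitinase that cuts the chain off the substrate, had 96.2, 85.4, 86.3 and 89.8 CPM at 2 months, 71.1, 61.0 and 58.6 CPM at 18 months, and 71.1, 60.1 and 54.5 CPM at 24 months. The older ages were nearly equal, and both lay below the 2 month range. Psmd14 fell by 0.49 (SE 0.112, edgeR adjusted p = 0.0259) and 0.53 (SE 0.112, edgeR adjusted p = 0.0081) on the log2 scale. Psmd6 (Rpn7), a lid scaffold subunit, had 95, 85.6, 83.5 and 92.9 CPM at 2 months, 73.8, 64.7 and 60.4 CPM at 18 months, and 68.6, 68.9 and 59.3 CPM at 24 months. It too was at one level in the older ages, 0.743-fold and 0.734-fold of that at 2 months (edgeR adjusted p = 0.028 and 0.0104).

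Psmd11 (Rpn6), a lid subunit that braces the 19S particle against the core, had 124, 122, 151 and 127 CPM at 2 months, 109, 101 and 89.7 CPM at 18 months, and 97.2, 81.2 and 75.1 CPM at 24 months. It fell by 0.63 on the log2 scale at 24 months (SE 0.124, edgeR adjusted p = 0.00622) and had -0.39 at 18 months (SE 0.123, edgeR adjusted p = 0.0677). Psmd8 (Rpn12) was at 173, 145, 159 and 159 CPM at 2 months, 127, 107 and 99.7 CPM at 18 months, and 110.4, 108 and 83.3 CPM at 24 months. Its older samples were all below its 2 month samples, and it fell by 0.52 (SE 0.129, edgeR adjusted p = 0.034) and 0.66 (SE 0.13, edgeR adjusted p = 0.00623). Psmd2 (Rpn1), the docking scaffold of the base and the member with the most counts per library, was at 333, 304, 315 and 324 CPM at 2 months, 268, 223 and 205 CPM at 18 months, and 245, 219 and 184 CPM at 24 months. Psmd2 fell by 0.46 and 0.56 in log2 units (edgeR adjusted p = 0.0489 and 0.0112). The subunits that did not pass at 24 months were Psmd3 (log2 fold change -0.16, edgeR adjusted p = 0.24) and the ubiquitin receptor Psmd4 (-0.42, edgeR adjusted p = 0.0509), which was called lower in 5 of 20 alternatives, DESeq2 and limma-voom among them.

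Of the 5 activators and inhibitor, 1 fell at 18 months and 2 at 24 months (5.51% and 15.8% of all genes tested). Differences between these genes were tested only for Psme1 and Psme2 against Psme3, as the ratios given below. Psme3 (PA28 gamma), the nuclear activator, had 151, 149, 159.5 and 152 CPM at 2 months, 119, 109 and 108 CPM at 18 months, and 116, 94.9 and 78.4 CPM at 24 months. Its 2 month samples were tightly grouped and all older samples lay lower. Psme3 (chromosome 11, 101316213 to 101323537, mm10, plus strand) fell by 0.45 (SE 0.124, edgeR adjusted p = 0.0443) and 0.67 (SE 0.124, edgeR adjusted p = 0.00531) on the log2 scale. Psme4 (PA200), an activator with known roles in spermatogenesis and DNA repair, had 172, 142, 207 and 183 CPM at 2 months, 176, 147 and 129.8 CPM at 18 months, and 117, 131 and 113 CPM at 24 months. The 18 month samples overlapped with both other ages, and the 24 month samples lay below all of 2 months. Psme4 fell by 0.55 on the log2 scale at 24 months (SE 0.147, edgeR adjusted p = 0.0194). Its difference between 24 and 18 months was -0.33 (SE 0.155), the smallest unadjusted p of the members in that comparison (0.0633), and did not pass (edgeR adjusted p = 0.503).

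Psme1 (PA28 alpha) and Psme2 (PA28 beta), which form the interferon-inducible cap, had no called change in the edgeR test of all samples. Psme1 was at 150.04, 187, 200.2 and 113 CPM at 2 months, 139, 125 and 159.7 CPM at 18 months, and 130.4, 124 and 121 CPM at 24 months. The 2 month samples alone spanned the older ones. Its log2 fold change was -0.21 (SE 0.181, edgeR adjusted p = 0.483) at 18 months and -0.38 (SE 0.182, edgeR adjusted p = 0.127) at 24 months. Psme1 was called lower at 24 months in 2 of 20 alternatives, with a replicate block and without 2 month replicate 4, and its adjusted p over the alternatives ran from 0.0291 to 0.433. Psme2 had 84.7, 76.6, 90.5 and 68.4 CPM at 2 months, 81.0, 64.9 and 76.3 CPM at 18 months, and 84.1, 73.8 and 62.5 CPM at 24 months. These ranges overlap almost wholly, and the log2 fold changes of Psme2 were -0.11 (SE 0.136, edgeR adjusted p = 0.62) and -0.12 (SE 0.136, edgeR adjusted p = 0.5), the last turning to 0.063 with library totals alone. Psmf1 (PI31), which inhibits the core in vitro, was the only tested member with a positive value at both ages, 0.13 and 0.18 on the log2 scale, neither past the test (edgeR adjusted p = 0.491 and 0.247). It had 43.2, 41.4, 39.6 and 41.1 CPM at 2 months, 40.01, 52.8 and 43.1 CPM at 18 months, and 40.7, 48.5 and 51.7 CPM at 24 months.

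In the edgeR test, 0 of the 7 assembly chaperones fell at 18 months (5.51% of all genes tested). At 24 months 3 fell (Psmd5, Psmd10 and Psmg1, against 15.8% of all genes). The medians at 18 and 24 months were -0.37 and -0.34. At 18 months 4 of the 7 had an unadjusted p below 0.05 in the edgeR test (29.9% of all genes, in either direction). DESeq2 called 3 lower (Psmd9, Psmd10 and Psmg1) and limma-voom called 1 (Psmg1). Psmg1 (PAC1), which with Psmg2 starts the alpha ring, had log2 fold changes of -0.51 (SE 0.161, edgeR adjusted p = 0.0687) at 18 months and -0.50 (SE 0.161, edgeR adjusted p = 0.0363) at 24 months. Its partner Psmg2 (PAC2) had -0.14 and -0.05 (edgeR adjusted p = 0.446 and 0.769). Whether the partners differ from each other was not tested.

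The pair Psmg3 and Psmg4 (PAC3 and PAC4) was at 5.65, 5.56, 4.67 and 8.89 CPM for Psmg3 at 2 months, 4.71, 4.45 and 4.24 CPM at 18 months, and 5.52, 4.72 and 4.42 CPM at 24 months. Psmg4 had 13.6, 12.7, 8.61 and 13.3 CPM at 2 months, 10.1, 9.30 and 8.55 CPM at 18 months, and 8.96, 10.9 and 8.96 CPM at 24 months. Both overlapped between ages and neither passed the test, although Psmg4 was called lower at 24 against 2 months without 2 month replicate 3. Psmd9 (p27), a chaperone of the ATPase ring, had 32.2, 28.3, 29.9 and 29.1 CPM at 2 months, 26.5, 23.0 and 24.3 CPM at 18 months, and 27.2, 28.4 and 28.4 CPM at 24 months. It was the 1 member whose 24 month samples all lay above its 18 month samples (6.73% of all genes tested), and that difference of 0.19 in log2 units (SE 0.0996, edgeR adjusted p = 0.54) did not pass.

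The catalytic subunits of the immunoproteasome moved the other way. Psmb8, the inducible counterpart of Psmb5, had 13.5, 10.5, 14.9 and 8.83 CPM at 2 months, 22.5, 17 and 21.8 CPM at 18 months, and 29.3, 35.9 and 31.2 CPM at 24 months. Psmb9, that of Psmb6, had 8.62, 8.58, 12.8 and 6.42 CPM at 2 months, 18.4, 12.4 and 19.6 CPM at 18 months, and 25, 29.0 and 26.5 CPM at 24 months. Psmb10, that of Psmb7, had 27.1, 26.0, 25.6 and 19.4 CPM at 2 months, 35.9, 31.5 and 36.4 CPM at 18 months, and 38.3, 40.9 and 35.8 CPM at 24 months. All 3 rose at 24 months (log2 fold changes 1.43, 1.56 and 0.64, edgeR adjusted p = 0.00209, 0.0027 and 0.00641) and at 18 months (0.78, 0.89 and 0.50, edgeR adjusted p = 0.0313, 0.039 and 0.0366). Of all genes tested, 19.2% were higher at 24 and 6.04% at 18 months. The calls of the 3 subunits at 18 months held in 4, 4 and 3 of the 10 fits that left out 1 sample, and those at 24 months in all 10.

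Within a sample, the ratio of the inducible to the constitutive subunit's counts does not depend on scaling between samples. Psmb8 over Psmb5 was 0.403, 0.388, 0.473 and 0.360 at 2 months, 0.980, 0.998 and 1.17 at 18 months, and 1.39, 2.06 and 2.44 at 24 months. The 3 ages did not overlap. This ratio was 2.59-fold higher at 18 than at 2 months, 4.74-fold higher at 24 than at 2 months and 1.83-fold higher at 24 than at 18 months. Psmb9 over Psmb6 also had no overlap between ages, with 0.0456 to 0.0869, 0.119 to 0.214 and 0.220 to 0.295 at 2, 18 and 24 months. Psmb10 over Psmb7 was 0.245 to 0.315, 0.483 to 0.749 and 0.664 to 0.851, so that only the 2 older ages overlapped. Its ratio was 2.16-fold higher at 18 and 2.85-fold higher at 24 than at 2 months. Exact two-sided permutation tests gave p = 0.0571 for each of these 3 ratios at 18 and at 24 against 2 months, which is the smallest that 3 against 4 samples allow, and 0.107 after Benjamini-Hochberg adjustment over 15 tests. At 24 against 18 months the exact p was 0.1 for the first pair of ratios, the smallest for 3 against 3, and 0.2 for Psmb10 over Psmb7. With these numbers of samples the exact permutation test cannot give p below 0.05. Within the 3 same-numbered pairs of 24 and 18 month samples, each of these 3 ratios was higher at 24 months in 3 of 3 pairs, by 0.18 to 0.55 on the log2 scale for Psmb10 over Psmb7. An exact sign-flip test over the pairs, added after the data were seen, gave p = 0.25 for each, the smallest that 3 pairs allow.

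For the caps, Psme2 over Psme3 was 0.449 to 0.568 in 2 month samples, 0.596 to 0.708 in 18 month samples and 0.728 to 0.798 in 24 month samples, with no overlap. It was 1.27-fold higher at 18 and 1.47-fold higher at 24 than at 2 months (exact permutation p = 0.0571 each, adjusted 0.107). Psme1 over Psme3 overlapped between ages, with 0.745 to 1.26, 1.15 to 1.48 and 1.13 to 1.54 (exact permutation p = 0.343 at 18 and 0.229 at 24 against 2 months).

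**Figure D4:**
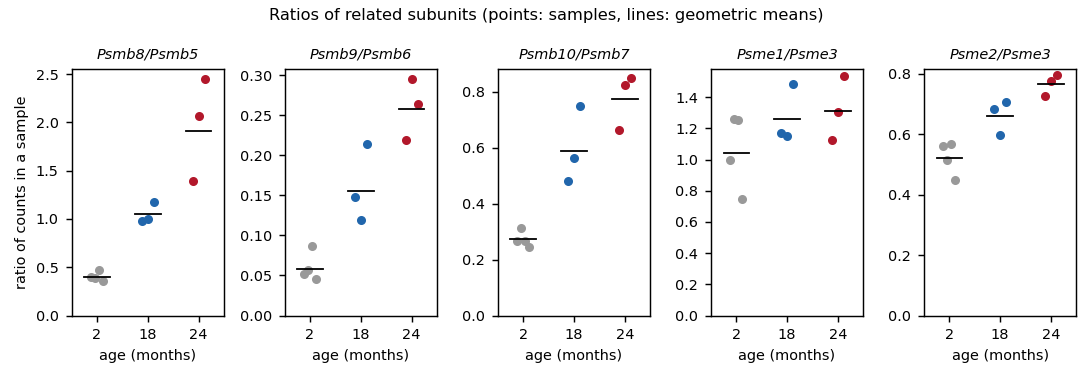
Ratio of the counts of 2 genes within a sample (y axes start at 0, points are samples, lines geometric means) by age in months. Psmb8 over Psmb5 ran from 0.360 to 0.473 in 2 month samples, 0.980 to 1.17 in 18 month samples and 1.39 to 2.44 in 24 month samples, and Psme1 over Psme3 overlapped at all ages.

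Levels of different genes were compared as RPKM, the CPM per kilobase of merged exons. At 2 months the highest and lowest level per role were 95.6 RPKM for Psma6 and 1.51 RPKM for Psma8 among alpha subunits, and 80.7 RPKM for Psmb6 and 26.3 RPKM for Psmb7 among the tested beta subunits. Among ATPases Psmc1 was highest at 89.0 RPKM and Psmc2 lowest at 27.9 RPKM. Among other 19S subunits these were Psmd2 with 79.0 RPKM and Psmd11 with 20.5 RPKM. The median level was 43.4 RPKM for alpha and 42.1 RPKM for beta subunits, 64.1 RPKM for ATPases and 31.9 RPKM for other 19S subunits. It was 45.4 RPKM for activators and inhibitor, between Psme1 at 73.7 RPKM and Psmf1 at 6.42 RPKM. Assembly chaperones, which leave the finished complex, had the lowest median, 15.2 RPKM, between Psmg4 at 21.8 RPKM and Psmg3 at 2.14 RPKM. The order depends on the length used: with the principal transcript's length, chosen as an alternative after the data were seen, the beta subunits had the highest median (107 RPKM), Psma7 was the highest alpha subunit (161 RPKM) and Psmb5 the lowest beta subunit (32.4 RPKM). The chaperones had the lowest median under both lengths. At 18 and 24 months the medians per merged exon length were 30.1 and 28.3 RPKM for alpha, 32.6 and 29.3 RPKM for beta, 48.4 and 45.1 RPKM for ATPases, and 23.7 and 23.4 RPKM for other 19S subunits.

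**Figure D5:**
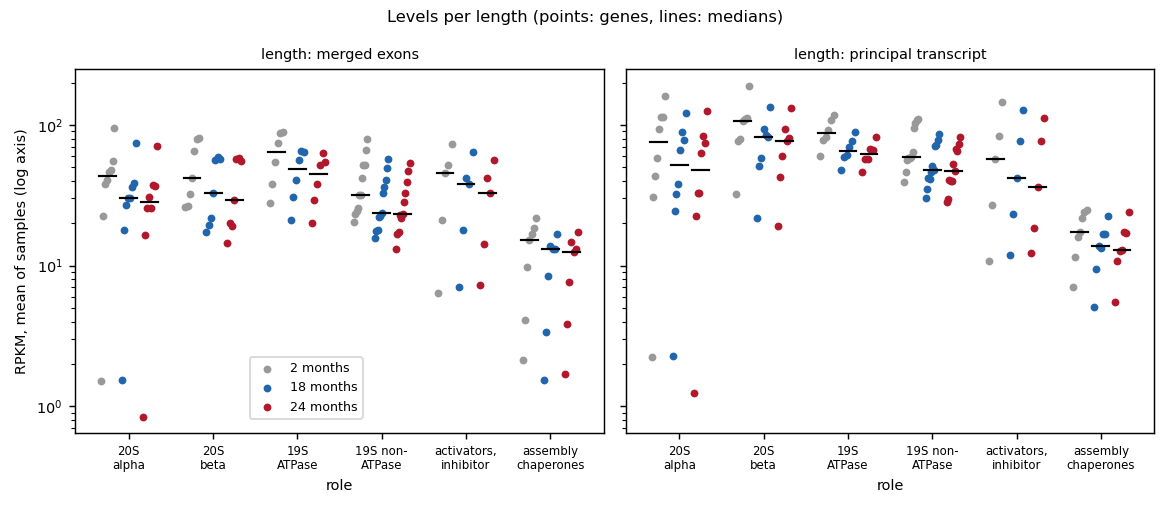
Mean level per length (RPKM, log axis) of each tested gene (points) by role and age, with the median (line), using merged exons (left) or the principal transcript (right). Chaperones have the lowest median in both panels, 15.2 and 17.3 RPKM at 2 months, and Psma8 is the lowest point at 1.51 and 2.23 RPKM.

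Genes that work with the proteasome were counted from lists of known partners. Of 15 tested associated factors, 2 fell at 18 months (5.51% of all genes tested) and 7 at 24 months (15.8% of all genes tested), and 0 rose. Uchl5, a deubiquitinase on the 19S particle, averaged 32.2 ± 3.10 CPM at 2 months (SD, n = 4), 22 ± 5.23 CPM at 18 months (n = 3) and 17 ± 1.54 CPM at 24 months (n = 3). It fell by 0.92 on the log2 scale at 24 months (SE 0.164, edgeR adjusted p = 0.00455), lower than any constitutive subunit. Txnl1, a thioredoxin bound to the 19S particle, fell by 0.79 (SE 0.149, edgeR adjusted p = 0.00554) and Rad23b, a shuttle for ubiquitinated proteins, by 0.53 (SE 0.107, edgeR adjusted p = 0.00706). The list's median at 24 months was -0.34.

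Among 9 genes of the Vcp segregase, which unfolds substrates ahead of the proteasome, 1 fell at 18 months and 5 fell at 24 months. Of all genes tested, 5.51% were lower at 18 months and 15.8% at 24 months. Ubxn4, an adaptor of the endoplasmic reticulum, was at -0.65 at 24 months (SE 0.117, edgeR adjusted p = 0.00488). Among 16 genes of the transcriptional control of the proteasome, 2 fell at 18 months and 4 at 24 months, and 0 rose. The shares of all genes lower were 5.51% and 15.8%, and whether the list differs from them was not tested. Foxo1 fell by 0.80 and 0.85 in log2 units (edgeR adjusted p = 0.0217 and 0.00658) and Nfya, a subunit of the CCAAT-binding factor, by 0.44 and 0.57 (edgeR adjusted p = 0.0304 and 0.00561). Nfe2l1, the factor that raises proteasome genes when the proteasome is impaired, was named after its values were seen. It averaged 807 ± 179 CPM at 2 months (SD, n = 4), 642 ± 115 CPM at 18 months (n = 3) and 556 ± 53.4 CPM at 24 months (n = 3), and did not pass (log2 fold changes -0.33 and -0.54, edgeR adjusted p = 0.293 and 0.0597).

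The makeup of the ovary moved with age beside these values. For the counts that follow, 5.51% of all genes tested were lower and 6.04% higher at 18 against 2 months. At 24 against 2 months these shares were 15.8% and 19.2%. All 10 oocyte markers were lower at 18 and 24 months, with summed levels of 170 to 413 CPM in 2 month samples, 23.6 to 49.2 CPM in 18 month samples and 4.41 to 33.3 CPM in 24 month samples. All 8 cell division genes were lower at both ages (347 to 626, 117 to 183 and 62.3 to 175 CPM). Of 8 granulosa cell markers 3 and 4 were lower (2911 to 3875, 1624 to 2943 and 1430.4 to 3634 CPM), and of 6 corpus luteum markers 0 and 3 (22380.0 to 56220, 15318 to 28343 and 3318 to 13732 CPM). Theca and steroid synthesis genes had 0 and 1 of 6 lower (24389 to 53896, 17867 to 28317 and 5558 to 21678 CPM), the last near the share of all genes. Cyp11a1, Lhcgr and Star stand in both this list and the corpus luteum list, so their values are not separate. Macrophage markers were higher for 7 and 8 of 8 (232 to 292, 481 to 661 and 548 to 625 CPM), T cell markers for 5 and 7 of 7 (8.48 to 11.4, 26.4 to 35.6 and 18.3 to 51.6 CPM), and B cell markers for 0 and 2 of 5 (2.04 to 3.94, 2.55 to 7.23 and 4.38 to 12.3 CPM). Interferon response genes were higher for 2 and 7 of 8 (142 to 236, 275 to 506 and 422 to 681 CPM), and surface epithelium genes for 5 and 6 of 8 (109 to 143, 228 to 556 and 203 to 688 CPM). Oviduct epithelium genes were higher for 1 and 5 of 5 (5.28 to 10.9, 10.5 to 75.1 and 12.8 to 749.6 CPM). Their 24 month sums were uneven, at 12.8, 62.9 and 749.6 CPM in replicates 1 to 3. Replicate 3 also had the lowest proteasome sum of that age, 3116 CPM. No listed marker was at 0 in all samples of an age. Their part in the lower proteasome levels, and in the higher immunoproteasome levels, was not tested.

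Genes with and without a motif in the promoter window were set side by side. At 24 against 2 months the median log2 fold change was -0.49 for the 14 tested genes with the ETS core and -0.43 for the 22 without it. For the antioxidant response element core it was -0.54 for 6 genes with it and -0.45 for 30 without, and for the CCAAT box -0.45 for 12 with it and -0.47 for 24 without. At 18 against 2 months the order was the other way for the ETS core (-0.40 with, -0.42 without) and the antioxidant response element core (-0.33 with, -0.42 without), and for the CCAAT box the medians were -0.42 with and -0.41 without. These medians are descriptions of the genes in the promoter table and were not tested.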

How the data were processed

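RNA of whole ovaries was sequenced from libraries of a stranded mRNA kit, per the labels' protocols. The authors deposited raw counts of reads per gene, 1 column per library, made with FastQC, cutadapt, STAR and HTSeq on mm10, per the submitters' processing notes. Tool versions, the annotation and whether counting used strand: not given in the sources used here. Reads of genes with overlapping exons therefore cannot be assigned with certainty. The spans of 17 members, introns included, overlap that of a counted gene, in 0 cases one with more counts.

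Libraries were grouped by age from the titles. The members, gene lists and tests were chosen with earlier results of these data known. Libraries of 18 month replicates 3 and 4 were summed. Genes passing edgeR's filterByExpr (20331) were TMM-scaled and entered edgeR 4.0.16 (R 4.3.3) for its two-sided quasi-likelihood F-test with robust estimation, all 3 ages in 1 model (7 residual degrees of freedom), at a Benjamini-Hochberg adjusted p of 0.05 over all genes tested. The test was checked on simulated counts with changes larger than the median changes of the members, so its recovery of changes that small was not checked. SE is the log2 fold change over the square root of F. Scarce genes carry more counting error, since totals per library were 5231724 to 33407509. Count ratios used a pseudocount of 0.5 in the tests. Exon lengths came from GENCODE release M21, in which 43 of 45 members had the same coordinates as in the deposited table, and promoters from RefSeq.

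Values are given for up to 6 members per comparison with the smallest adjusted p, the highest and lowest member per role, Psmb5 to Psmb7, Psme1 to Psme4, Psmb8 to Psmb10, filtered members, and up to 3 genes per partner list. Of the 17 listed associated factors 2 were not analysed here. A further partner list is not reported here. The alternatives tried were DESeq2 1.42.0 and limma-voom (limma 3.58.1) as other tests, the size factors of DESeq2 or library totals as the scale, other count filters, a replicate block, fits of 2 ages only, 11 separate libraries, leaving out each sample, and, added after the data were seen, another exon length and a sign-flip test over pairs.

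Whether replicate numbers pair samples was checked by correlating, over genes, how samples deviate from their age mean. For 24 against 18 months, same-numbered samples had r = 0.398, 0.283 and 0.148. Different-numbered samples had r from -0.339 to 0.144, the highest for 24 month replicate 3 with 18 month replicate 2. The third pair is thus hardly set apart from a mismatch. Only the sign-flip tests in that comparison and the fits with a replicate block used the numbers, although no label states what a number marks. The main edgeR fit, DESeq2, limma-voom and the permutation tests of the ratios treated the samples as unpaired.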

Additional observations from a re-analysis of the deposited data

Results flagged for a closer look

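Of 53 genes, ratios and sums tested at 2 months, the only age with 4 samples, 3 had 1 sample far from the rest, and chance flags about 1 in 20 groups. For Psmd11 the gap between replicate 3 (151 CPM) and the nearest of the other samples was 0.843 of the whole range. For Psmg1 the gap below the others was 0.865 of the range, with replicate 3 at 20.2 CPM. For Psma1 it was 0.886, with replicate 1 highest at 125 CPM. All 3 values exceed Dixon's critical value for 4 samples.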

How the results depend on the processing

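The number of members called lower at 18 than at 2 months (17) was 8 with library totals alone, 6 with no count filter, 9 with a replicate block, 11 with only the 2 ages compared and 0 with those ages and a replicate block, 31 with DESeq2, 28 with limma-voom and 32 with the 11 libraries apart, and 0 to 25 when each sample was left out. At 24 against 2 months (33) it was 21 with library totals alone, 31 with a replicate block in the fit of 3 ages, 7 with only the 2 ages compared and a replicate block, and 20 to 33 when each sample was left out. The median log2 fold change at 24 months was -0.29 with library totals alone. With a replicate block 0 members were called between 24 and 18 months, as without it. The block called Psme1 lower at 24 against 2 months. Same-numbered samples of 18 and 2 months correlated at 0.074, -0.058 and -0.054 and those of 24 and 2 months at -0.028, -0.076 and -0.109, so the numbers do not pair them. With the principal transcript's length the median levels at 2 months were 75.9 RPKM (alpha), 107 RPKM (beta), 87.1 RPKM (ATPases), 59.2 RPKM (other 19S subunits), 57.4 RPKM (activators and inhibitor) and 17.3 RPKM (chaperones). Signs turned for Psma8 at 18 against 2 months (-0.18 with limma-voom, -0.12 with 11 libraries apart, -0.13 and -0.042 without 2 month replicate 2 and 3, -0.60 without 18 month replicate 1, and -0.60 to 0.19 over all samples left out), for Psme2 at 24 against 2 months (0.063 with library totals alone) and for the log2 ratio of Psme1 over Psme3 at 24 against 18 months (-0.0049 without 18 month replicate 2, -0.053 without 24 month replicate 3, and -0.053 to 0.18 over all). At 24 against 2 months the sign also turned in some alternatives for Psmd3 (up to 0.027), Psmd9 (up to 0.094) and Psmg2 (up to 0.13). In every alternative run, 39 of 44 genes were negative at 24 against 2 months and 14 of 44 at 24 against 18 months. Apart from library totals and from fits with fewer samples or genes, the cause was not tested. Depth limits Psmb11 most, with 0 to 14 reads a sample.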
